A study of Mus musculus and Homo sapiens with 18 samples.

Results

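Complement genes were followed in 3 systems in which *Qk*, the gene of the RNA-binding protein Quaking (*QKI* in human), had been targeted. The members are 9 genes chosen by name and not by their values: *C1qa*, *C1qb* and *C1qc*, *C3*, *C4b*, *Cfb*, *Serping1*, *C3ar1* and *C5ar1*. All 9 are listed among the 46882 genes of the lens table and the 54838 of the NLPC table, and under upper-case symbols among the 60880 of the HLE-B3 table. RNA-seq libraries were made from 3 samples of each of 6 groups. By the labels, Ctrl lenses came from mice with *Nestin-CreERT2* and 1 floxed *Qk* allele (*QkL/+*), and *Qk*-iCKO lenses from mice with *Nestin-CreERT2* and both alleles floxed (*QkL/L*). Both groups were given tamoxifen at postnatal days 7 and 8, so that controls of this genotype carry the transgene, the drug and 1 deletable allele as well (the study's methods also name littermates of other genotypes as controls), and the lenses were taken at P17-19. The Cre is driven by the Nestin promoter and thus acts in cells that use it. NLPCs were derived from neural stem cells of newborn mouse brain by 6 days with Noggin (100 ng/ml) and 12 days with bFGF (100 ng/ml), BMP4 (20 ng/ml) and BMP7 (20 ng/ml), and compare WT with *Qk-/-*. HLE-B3 is an established human lens epithelial cell line, and its WT was compared with *QKI* KO cells made with CRISPR, whose clonality is not given in the sources used here.

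Complement is a cascade of plasma proteins that tags surfaces for removal. C1q, a hexamer of subunits each built from the A, B and C chains, recognises antibody, dying cells or other surfaces and starts the classical pathway through the proteases C1r and C1s, which cleave C4 and C2. All pathways meet at C3, whose fragments coat the target or act on the receptor C3aR, and the terminal components from C5 onward form the membrane attack complex. Liver makes most of the plasma C3 and C4, while C1q comes mainly from macrophages, microglia and dendritic cells. The lens has no blood vessels once the fetal vasculature around it has regressed.

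Between 10319320 and 16425331 reads per lens library, 28154202 and 68243360 per NLPC library and 69190864 and 81384471 per HLE-B3 library were counted on genes. *QKI* fell in the *QKI* KO cells, from 261 ± 3.42 to 102.7 ± 2.54 CPM (counts scaled to library size with TMM factors, mean ± SD, n = 3, here and below), a log2 fold change of −1.34 (standard error, SE, 0.054, adjusted p = 1.85e-11). In lenses *Qk* was at 121 ± 5.67 CPM in Ctrl and 97.7 ± 9.74 in *Qk*-iCKO (log2 fold change −0.31, SE 0.14, adjusted p = 0.20). In NLPCs it was at 2553 ± 116 CPM in WT and at 3399 ± 273 in the libraries labelled *Qk-/-* (0.41, SE 0.091, adjusted p = 0.027), so no drop of *Qk* RNA marks those libraries. The deletion removes a single exon, and whole-gene counts need not show it. At the protein level, the paper reports that Qki was lost from neural stem cells and NLPCs after the deletion was induced. The data it shows are Qki-5 staining of the stem cells and a Qki-5 immunoblot of NLPCs. It also reports that nearly all Qki-5 was gone from lens cells marked by a Cre reporter, while the isoform Qki-6 fell only in part. The lens libraries held *Cryaa* at 158700 ± 5165 CPM in Ctrl and 123700 ± 31460 in *Qk*-iCKO. In the NLPC libraries *Cryaa* had at most 18 counts, *Mip* at most 12 and *Foxe3* at most 1, *Pax6* was present (83.0 ± 2.77 CPM in WT), and the astrocyte gene *Gfap* was at 1391 ± 146 CPM in WT. The paper describes NLPCs by staining for Pax6 and αB-crystallin, and the gene of the latter, *Cryab*, is not among the lens markers used here. *CRYAA* had no count in HLE-B3 cells, where *PAX6* was at 147 ± 9.08 CPM in WT. In 2 groups a library stands apart. *Qk*-iCKO lens 1 had a TMM factor of 1.48 against a lowest of 0.888 and the highest summed CPM of pigment cell genes, and the library labelled *Qk-/-* replicate 2 had a mean correlation of 0.892 with the other NLPC libraries, against up to 0.957 for the rest. In lenses the counts on 4 Y-linked genes summed to 0, 0 and 3 in Ctrl and to 1, 1051 and 930 in *Qk*-iCKO, so the sexes were not balanced between the groups.

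To show what lies at the starts of genes that moved together or in opposite directions, the 250 bases before the start of *C1qb*, *C1qc* and *C3* are printed 5′ to 3′ on the strand of the gene. The mouse windows are from RefSeq on GRCm38.p6 (chr4:136886201-136886450, chr4:136892915-136893164 and chr17:57228137-57228386), and the human one lies before the canonical transcript of *C3* on GRCh37 (chr19:6720662-6720911), all on the minus strand. The *C1qc* window overlaps the longer gene model of the GENCODE annotation, and the human *C3* window lies inside the span of its gene there, which reaches further upstream. Capitals mark the letters of the motifs described below.
*C1qb* (mouse): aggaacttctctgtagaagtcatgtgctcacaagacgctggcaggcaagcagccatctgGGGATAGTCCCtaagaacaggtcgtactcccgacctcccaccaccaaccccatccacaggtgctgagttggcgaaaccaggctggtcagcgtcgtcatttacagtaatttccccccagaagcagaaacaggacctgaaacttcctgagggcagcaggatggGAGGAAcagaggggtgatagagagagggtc
*C1qc* (mouse): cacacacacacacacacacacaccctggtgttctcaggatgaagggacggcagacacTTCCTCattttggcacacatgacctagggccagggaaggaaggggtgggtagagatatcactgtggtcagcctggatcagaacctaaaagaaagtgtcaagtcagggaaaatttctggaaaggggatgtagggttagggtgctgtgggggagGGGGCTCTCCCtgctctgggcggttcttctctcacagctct
*C3* (mouse): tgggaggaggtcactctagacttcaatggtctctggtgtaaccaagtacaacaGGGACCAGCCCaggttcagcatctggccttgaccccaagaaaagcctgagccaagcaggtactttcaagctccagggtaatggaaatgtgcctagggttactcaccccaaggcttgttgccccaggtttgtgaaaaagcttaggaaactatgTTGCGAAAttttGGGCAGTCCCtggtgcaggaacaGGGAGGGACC
*C3* (human): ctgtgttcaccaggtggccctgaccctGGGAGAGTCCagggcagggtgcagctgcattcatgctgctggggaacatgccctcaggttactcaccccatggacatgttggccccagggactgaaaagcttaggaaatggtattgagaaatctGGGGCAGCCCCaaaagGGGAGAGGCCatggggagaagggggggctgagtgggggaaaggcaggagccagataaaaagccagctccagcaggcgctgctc

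Motifs were searched on both strands. GAGGAA, the core of sites of the myeloid factor PU.1, stood from 30 to 25 bases before the start of *C1qb* and, on the other strand, from 193 to 188 bases before that of *C1qc*. It occurred in 23.3% of 32851 mouse promoter windows of the same length. The spaced letters of NF-kB sites, GGG and CC with 5 free bases between them, occurred in all 4 windows, in 45.8% of mouse windows and in 65.4% of 19874 human ones, and its matches overlap each other where the run of G or C is longer. TTGCNNAA, a C/EBP palindrome found in 9.56% of mouse windows, stood from 45 to 38 bases before the start of mouse *C3* beside such an NF-kB match, and had no match in the human *C3* window. TTCNNNGAA (STAT dimers, 7.02% of mouse windows) and the interferon response core, GAAA repeated after 2 free bases (2.98%), had no match in these 4 windows. RefSeq entries were found for 5 of the 9 mouse members, of which the *C3ar1* window held an NF-kB match and the *C5ar1* window held no match to the 5 motifs. No window is shown for *C1qa*, *C4b*, *Cfb* and *Serping1*.

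The first comparison asks how complement transcripts differed between Ctrl and *Qk*-iCKO lenses. The 3 C1q chain genes, *C3*, *C4b* and both anaphylatoxin receptor genes went from between 0 and 27 reads per Ctrl library to between 11 and 1230 per *Qk*-iCKO library, and the C1 inhibitor gene *Serping1* rose less. Of the 9 members, 8 had enough counts to be tested and all 8 rose; 8.38% of the 12201 genes tested rose and 3.88% fell. For 6 of the 8 (all but *C4b* and *Serping1*) the count minimum was reached in the 3 *Qk*-iCKO lenses and in no Ctrl lens. Such genes had to differ, as 84.9% of the 418 genes of this kind were called higher, so their number is a description and not support for the group. In whole-lens RNA, more cells of a type and more RNA per cell cannot be told apart.

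*C1qa*, *C1qb* and *C1qc*, which code for the 3 chains of C1q, lie side by side on chromosome 4 (GRCm38; *C1qb* at 136880129 to 136886187, *C1qc* at 136889804 to 136893065 and *C1qa* at 136895917 to 136898803, minus strand, 3 merged exons each). *C1qa* had 4, 8 and 9 reads in Ctrl lenses 1 to 3 and 381, 427 and 431 in *Qk*-iCKO lenses 1 to 3. *C1qb* had 4, 5 and 11 reads against 318, 275 and 242. *C1qc* had 5, 1 and 5 reads against 384, 356 and 296. Every *Qk*-iCKO lens lay far above every Ctrl lens for each chain. In CPM, *C1qa* went from 0.507 ± 0.153 to 36.1 ± 11.1 (log2 fold change 6.10, SE 0.36, adjusted p = 0.000177), and the ratio of the summed counts was 65.7 (95% interval 42.8 to 106, which covers counting error only, as for all ratios below). *C1qb* went from 0.481 ± 0.238 to 23.5 ± 3.64 CPM (5.56, SE 0.30, adjusted p = 0.000173) and *C1qc* from 0.276 ± 0.181 to 29.3 ± 5.47 CPM (6.70, SE 0.38, adjusted p = 0.000176). Divided by the length of the merged exons, the level in *Qk*-iCKO lenses was 34.7 ± 10.6 CPM per kb for *C1qa*, 21.6 ± 3.34 for *C1qb* and 15.2 ± 2.83 for *C1qc*, and this order held in each of the 3 lenses.

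**Figure D1:**
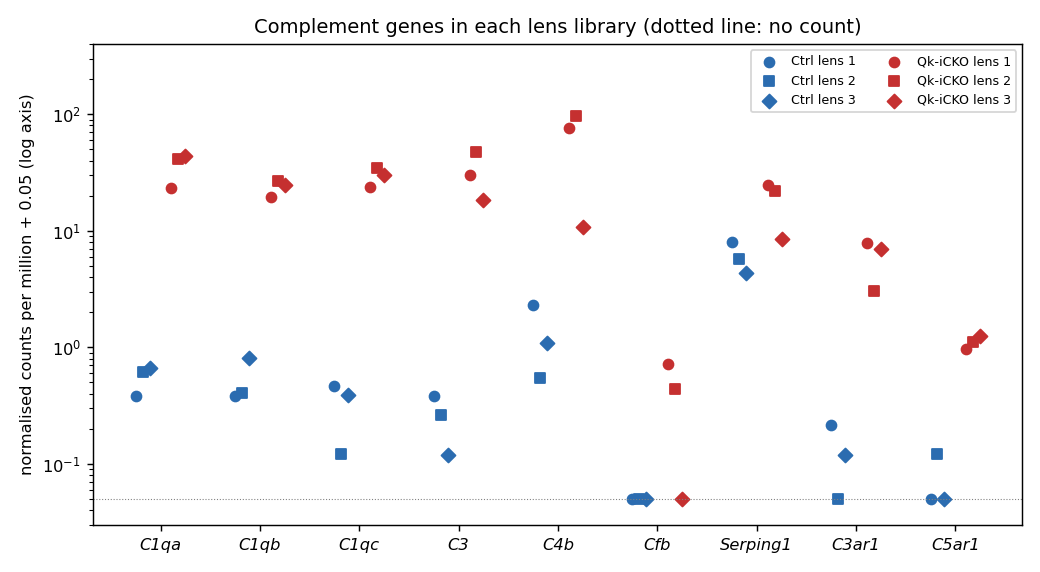
Normalised CPM plus 0.05 (log axis) of the 9 complement genes in each of 3 Ctrl (blue) and 3 Qk-iCKO (red) lens libraries, with a marker shape per replicate number. For Cfb both groups have points on the no-count line, and Qk-iCKO lens 3 is the lowest of its group for C3, C4b and Serping1.

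Markers of macrophages and microglia moved with the C1q chains. Of 10 such markers, 8 were tested and all 8 rose, led by *Mrc1*, a mannose receptor (log2 fold change 6.53, SE 0.23), the adaptor gene *Tyrobp* (6.24, SE 0.66), the lysosomal gene *Cd68* (6.05, SE 0.58) and the leukocyte gene *Ptprc* (6.04, SE 0.63). Of all genes tested, 8.38% rose. The tested markers other than *Csf1r* reached the count minimum in the 3 *Qk*-iCKO lenses and in no Ctrl lens. Since 84.9% of the 418 genes of this kind were called higher, the number of markers that rose is a description. The summed level of the 10 markers ranged from 2.28 to 4.19 CPM in Ctrl and from 116 to 136 in *Qk*-iCKO lenses, while the summed C1q chains were at 1.08, 0.998 and 1.72 CPM in Ctrl and at 66.5, 102 and 97.8 CPM in *Qk*-iCKO lenses 1 to 3. *Aif1* had no read in Ctrl and 2, 8 and 3 in *Qk*-iCKO lenses, and *Cx3cr1*, a microglial receptor gene, had 5, 7 and 4 against 5, 19 and 1, so these defining markers stayed near 0. Of 4 neutrophil markers *S100a8* and *S100a9* had no read in any lens. *Csf3r* went from 0 in each Ctrl lens to 21, 21 and 14 reads, 20.8-fold higher against an assumed floor of 3 counts over the group. The part of these cells in the C1q result was not tested.

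**Figure D2:**
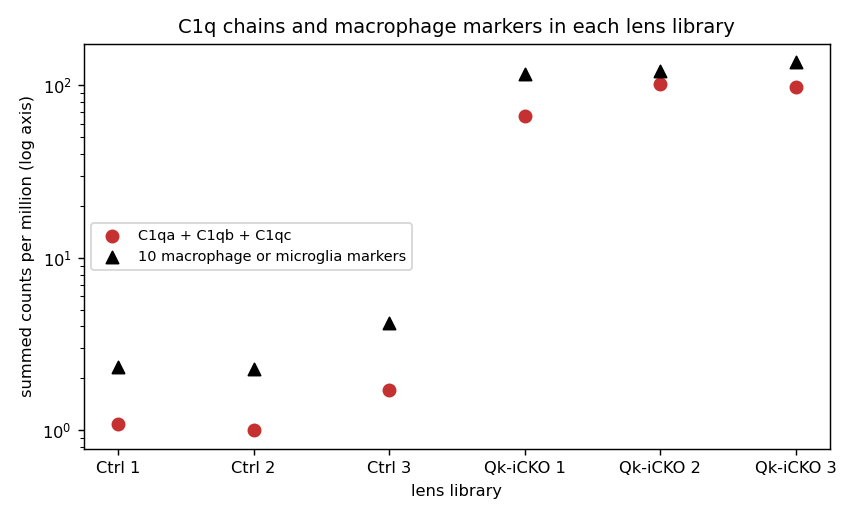
Summed CPM (log axis) of C1qa, C1qb and C1qc (red circles) and of 10 macrophage or microglia markers (black triangles) in each lens library. Both sums are below 5 in the 3 Ctrl lenses and above 60 in the 3 Qk-iCKO lenses.

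*C3* codes for the protein on which the pathways converge (chromosome 17, 57203970 to 57228136, minus strand, 42 merged exons). It had 4, 3 and 1 reads in Ctrl and 489, 485 and 180 in *Qk*-iCKO lenses. The groups did not overlap, and the lowest *Qk*-iCKO lens was number 3. It went from 0.205 ± 0.132 to 31.7 ± 14.5 CPM (log2 fold change 7.26, SE 0.55, adjusted p = 0.000554, ratio of summed counts 161, 81.2 to 373) and ranked 31st from the top by log2 fold change. Per length, the *C3* level in *Qk*-iCKO lenses was 6.17 ± 2.81 CPM per kb, below each C1q chain in every lens.

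*C4b*, the classical pathway component that C1s cleaves (chromosome 17, 34728380 to 34743882, minus strand, 40 merged exons), varied most among the *Qk*-iCKO lenses. Its reads were 27, 7 and 15 in Ctrl and 1230, 1001 and 107 in *Qk*-iCKO. Lens 3 was far below lenses 1 and 2, and the groups did not overlap. The levels were 1.25 ± 0.891 and 61.1 ± 44.8 CPM (5.63, SE 0.91, adjusted p = 0.00878), and with 1 lens left out in turn the log2 fold change lay between 5.13 and 6.28 with an adjusted p of at most 0.0497. *C4a*, its near-identical neighbour, had 3, 4 and 3 reads in Ctrl and 7, 4 and 5 in *Qk*-iCKO lenses, and reads shared by the copies could be counted on neither or either.

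*Serping1* codes for the C1 inhibitor, which inactivates C1r and C1s (chromosome 2, 84765387 to 84775444, minus strand). It was the one member well above 0 in Ctrl lenses, with 96, 80 and 63 reads, against 404, 225 and 84 in *Qk*-iCKO lenses. In CPM these were 7.96, 5.70 and 4.32 against 24.8, 21.8 and 8.48. The lowest *Qk*-iCKO lens was just above the highest Ctrl lens, and within each replicate number the *Qk*-iCKO lens was the higher one. The rise (log2 fold change 1.63, SE 0.41, adjusted p = 0.0417, ratio of summed counts 3.32, 2.86 to 3.86) was the smallest among the members, and it did not pass with library sizes scaled to total counts alone (adjusted p = 0.0602) or without any 1 of the lenses other than *Qk*-iCKO lens 3 (adjusted p = 0.0847, 0.134 and 0.144 without Ctrl lenses 1, 2 and 3, and 0.0922 and 0.096 without *Qk*-iCKO lenses 1 and 2). Without *Qk*-iCKO lens 3 the adjusted p was 0.00755, with the replicate number as a block 0.00439 and with DESeq2 0.00144. In Ctrl lenses *Serping1* was the highest member per length, at 2.58 ± 0.788 CPM per kb, ahead of *C1qa* (0.487 ± 0.148), *C1qb* (0.442 ± 0.218), *C4b* (0.22 ± 0.156), *C1qc* (0.143 ± 0.0938) and *C3* (0.0398 ± 0.0256), where *C1qa*, *C1qb* and *C4b* did not differ beyond their spread. In *Qk*-iCKO lenses it was at 7.89 ± 3.73 CPM per kb, between *C4b* (10.7 ± 7.87) and *C3*, and these neighbours overlapped. Markers of fibroblasts and mesenchyme summed to 62.6 to 78.4 CPM in Ctrl and to 101 to 171 in *Qk*-iCKO lenses, where lens 3 was again the lowest. None of the 3 of these 5 markers that were tested passed, and their part in the *Serping1* and *C4b* values was not tested.

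The receptor genes were low even where they rose. *C3ar1*, the receptor of the C3a fragment (chromosome 6, 122847138 to 122856161), had 2, 0 and 1 reads in Ctrl and 128, 31 and 69 in *Qk*-iCKO lenses (log2 fold change 6.15, SE 0.70, adjusted p = 0.00228, ratio 84.6, 28.6 to 413). *C5ar1*, the receptor of C5a on chromosome 7 (16246743 to 16259540), had 0, 1 and 0 against 15, 11 and 12 reads (4.96, SE 0.72, adjusted p = 0.00617, ratio 42.3, 7.15 to 1710). The groups did not overlap for either receptor, and the interval for *C5ar1* is wide since a single Ctrl read stands behind it. Per length the levels in *Qk*-iCKO lenses were 1.38 ± 0.60 CPM per kb for *C3ar1* and 0.415 ± 0.0567 for *C5ar1*. *Cfb*, the factor B protease of the alternative pathway (chromosome 17, 34856374 to 34862518), had no read in Ctrl and 11, 4 and 0 in *Qk*-iCKO lenses and was too low to be tested. With the low-count filter removed, its log2 fold change was 5.31 (SE 1.61, adjusted p = 0.032).

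Of 42 other complement genes, 18 were tested in the lens, 10 rose, none fell and 8 did not pass. Their median log2 fold change was 1.44, beside 0.006 over all genes tested, and 7 of the 18 had passed the count minimum only through *Qk*-iCKO lenses. Since 84.9% of the 418 genes of this kind were called higher, the count of 10 and the median are a description. Of all 12201 genes tested, 8.38% rose and 3.88% fell. Among recognition and receptor genes, *Fcna*, which codes for ficolin A, rose (7.04, SE 0.79, from 0, 1 and 0 to 56, 75 and 28 reads), and *Itgb2* (6.07, SE 0.80) and *Itgam* (5.81, SE 0.53), the chains of complement receptor 3, rose as well. *Itgax*, a chain of complement receptor 4, had no read in Ctrl and 143, 9 and 113 in *Qk*-iCKO lenses. This was 98.3-fold higher against an assumed floor of 3 counts over the group, and *Itgax* did not meet the count minimum for the test. The terminal component gene *C6* had no read in Ctrl and 38, 42 and 19 in *Qk*-iCKO lenses, 36.7-fold higher against the same floor. *Cfp*, which codes for properdin, went from 1.09 ± 0.172 to 10.6 ± 2.34 CPM (3.28, SE 0.26), the C1r gene *C1ra* from 0.438 ± 0.122 to 2.16 ± 0.725 (2.29, SE 0.40) and the C1s gene *C1s1* from 1.65 ± 0.623 to 4.99 ± 1.78 (1.59, SE 0.38). The regulator gene *Cd55* (2.09, SE 0.49) and the scavenger receptor gene *Colec12* (1.28, SE 0.22) rose as well. *Clu*, by far the most abundant of the tested list at 1215 ± 186 CPM in Ctrl, had a log2 fold change of 0.088 (SE 0.20, 95% interval −0.30 to 0.47), and *Cd59a*, which protects cells from the membrane attack complex, one of 0.12 (SE 0.14, −0.16 to 0.40). *C5* itself (mouse *Hc*), *C7* and *C9* had no read in any lens. With 1 lens left out in turn, 5 to 11 of these genes passed, with 6 and 5 without Ctrl lenses 2 and 3. *C1s1* did not pass with total-count scaling (adjusted p = 0.056) or without any 1 of the lenses other than *Qk*-iCKO lens 3 (adjusted p = 0.0509 to 0.13), and *Cd55* did not pass without any 1 of the lenses other than *Qk*-iCKO lens 2 (0.0676 to 0.106). *C1ra* (0.0642 and 0.0597 without Ctrl lenses 1 and 3) and *Colec12* (0.0563 and 0.0552 without Ctrl lenses 2 and 3) also lost the call.

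Genes of cytokine signals that act on complement transcription were examined next. Of 18, 14 were tested in the lens, 11 rose and 1 fell, where 8.38% of all genes tested rose and 3.88% fell. Of the 14, 4 had passed the count minimum only through *Qk*-iCKO lenses, and 84.9% of the 418 genes of this kind were called higher. *Spi1*, which codes for PU.1, went from 1, 0 and 1 to 51, 19 and 32 reads (log2 fold change 5.54, SE 0.60), and the C/EBP genes *Cebpd* (5.19, SE 0.70) and *Cebpb* (3.45, SE 0.40) and the *STAT3* target *Socs3* (2.52, SE 0.27) rose.

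The members, other complement genes, signalling genes, cell type markers and *Qk* were left out of a search for similar patterns over the 6 lens libraries. Among the remaining genes tested, those most like 3 members were found by the root mean square difference of log2 values. Each gene was centred on its own mean. A gene that was left out can lie closer than those named. Nearest to *C1qb* were *Dab2*, an endocytic adaptor gene (0.274), *Flnc* (0.313) and *Gda* (0.318). Nearest to *C3* were the chemokine gene *Ccl24* (0.362), *Gpnmb* (0.538) and *Rnase2a* (0.599). *Ccl24* had no read in Ctrl and was at 15.3, 16.9 and 8.68 CPM in *Qk*-iCKO lenses, low in lens 3 as *C3* was. Nearest to *Serping1* were *Sned1* (0.0832), *Slco3a1* (0.139) and the atypical chemokine receptor gene *Ackr3* (0.143). *Sned1* was at 41.9, 29.8 and 21.4 CPM in Ctrl and at 117, 116 and 38.8 CPM in *Qk*-iCKO lenses.

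The second comparison, between NLPCs labelled WT and *Qk-/-*, asks what was seen in cultured cells. There *C3* was an abundant transcript and rose further, *C4b* was abundant and showed no difference beyond its spread, and the C1q chains were at or near 0. Of the 9 members 3 were tested and 1 rose, where 4.74% of the 20371 genes tested rose and 5.96% fell. *C3* had 13300, 7372 and 14238 reads in the WT libraries and 27361, 12168 and 25866 in those labelled *Qk-/-*. In CPM the values were 194, 174 and 207 against 491, 416 and 436. Each library labelled *Qk-/-* lay above each WT library, and the log2 fold change was 1.22 (SE 0.10, adjusted p = 0.000534, ratio of summed counts 2.33, 2.30 to 2.36). Leaving out each library in turn gave 1.14 to 1.28, the library that stands apart included. Per length the *C3* level was 37.3 ± 3.23 CPM per kb in WT and 87.0 ± 7.55 in the libraries labelled *Qk-/-*, in both above *C4b* in every library.

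*C4b* had 3699, 1675 and 3750 reads in WT and 2845, 1005 and 3342 in the libraries labelled *Qk-/-*. Its level was 49.4 ± 8.52 against 47.2 ± 11.5 CPM (log2 fold change −0.063, SE 0.20, adjusted p = 0.871), so the groups overlapped, and the interval from −0.46 to 0.33 leaves room for a small change either way. *Serping1* was low, with 19, 18 and 14 against 16, 20 and 11 reads (0.34, SE 0.85, −1.33 to 2.00, adjusted p = 0.835). *C1qa* had no read in any NLPC library. *C1qb* had none in WT and 3, 0 and 8 in the libraries labelled *Qk-/-*, *C1qc* 0, 1 and 0 against 4, 2 and 0, and *Cfb* 2 reads in 1 library labelled *Qk-/-*. *C3ar1* had 0, 1 and 0 reads against 8, 54 and 1 and *C5ar1* 8, 5 and 0 against 0, 24 and 0. Most reads of both receptor genes came from replicate 2, the library that stands apart. In that library macrophage markers summed to 15.1 CPM and neutrophil markers to 6.83 CPM, against at most 7.18 and 0.664 CPM in the others.

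Of the 42 other complement genes 25 were tested in NLPCs, 3 rose and 2 fell, with a median log2 fold change of 0.31 beside 0.04 over all genes. Of all 20371 genes tested there, 4.74% rose and 5.96% fell. *C1s1* went from 26.7 ± 1.02 to 54.1 ± 4.20 CPM (1.02, SE 0.10, adjusted p = 0.00105), its relative *C1rl* from 4.24 ± 0.137 to 8.82 ± 2.96 (1.05, SE 0.25, adjusted p = 0.032) and *Cr1l*, the rodent regulator Crry, from 38.8 ± 3.0 to 57.3 ± 6.40 (0.56, SE 0.12, adjusted p = 0.0213). *Clu*, an inhibitor of the terminal complex, fell from 350 ± 35.1 to 117 ± 32.2 CPM (−1.58, SE 0.20, adjusted p = 0.00265) and *Csmd1*, a complement control protein of neural cells, from 23.3 ± 2.61 to 7.70 ± 2.24 (−1.61, SE 0.21, adjusted p = 0.00296). Without the library labelled *Qk-/-* replicate 2, 8 genes of this list passed, and 3 without any 1 of the WT libraries, where *C1rl* (adjusted p = 0.116 to 0.147) and *Cr1l* (0.0776 to 0.125) did not pass. *C1rl* also lost its call without *Qk-/-* replicate 3 (adjusted p = 0.0614), and *Cr1l* without *Qk-/-* replicate 1 (0.0852). Of 13 tested signalling genes *Il6st*, the shared receptor chain of the IL-6 family, rose (0.81, SE 0.090, adjusted p = 0.00147) and none fell. The astrocyte markers *Gfap* (−1.38, SE 0.20) and *Sox2* (−0.34, SE 0.077) fell while *Aqp4* rose (0.74, SE 0.078), and the part of such a shift in the *C3* result was not tested.

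The deletion effects of lens and NLPC were compared by an interaction term in a joint fit of 16675 genes, of which 8.53% passed. Of the 3 members tested in both systems, *C3* (difference NLPC minus lens −6.00 on the log2 scale, SE 0.54, adjusted p = 6.85e-05) and *C4b* (−5.61, SE 0.91, adjusted p = 0.00277) had the larger rise in the lens, while *Serping1* did not pass (−1.28, SE 0.73, adjusted p = 0.322). Both *C3* and *C4b* started from far higher levels in NLPC WT than in Ctrl lenses. Of 14 other complement genes tested in both, 5 passed, *Itgb2* (−4.31, SE 1.14), *Cfp* (−3.36, SE 0.36), *Cd93* (−1.85, SE 0.45), *C1ra* (−1.74, SE 0.42) and *Clu* (−1.58, SE 0.29).

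The third comparison asks whether complement transcripts differed in human lens epithelial cells targeted at *QKI*. There *C3* fell to a few percent of its WT level and *SERPING1* fell moderately, and the C1q chains were absent. Of the 9 members 6 were tested, 2 fell and none rose, where 17% of the 19049 genes tested rose and 16.3% fell. *C3* (GRCh37 chromosome 19, 6677715 to 6730573, minus strand) had 3309, 3344 and 2917 reads in WT and 116, 72 and 99 in *QKI* KO cells. The groups were far apart and each was tight, at 42.3 ± 3.04 and 1.33 ± 0.271 CPM (log2 fold change −4.99, SE 0.13, adjusted p = 8.13e-14, ratio 0.0315, 0.0279 to 0.0354). The change ranked 52nd from the lowest of all genes tested. The 50 nearest tested genes on the chromosome had a median log2 fold change of 0.00 and a lowest of −2.61, so its neighbours did not share it.

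*SERPING1* (chromosome 11, 57364860 to 57386644, plus strand) had 578, 632 and 469 reads against 342, 221 and 322. All WT libraries lay above all *QKI* KO libraries, at 7.42 ± 1.11 and 4.09 ± 0.78 CPM (log2 fold change −0.86, SE 0.17, adjusted p = 0.000955). *CFB* had 45, 15 and 40 reads against 0, 6 and 24 (−1.65, SE 0.92, adjusted p = 0.196) and *C3AR1* 33, 12 and 20 against 19, 0 and 1 (−1.61, SE 1.07, adjusted p = 0.288). Both overlapped between the groups, and each passed when 1 *QKI* KO library was left out, *CFB* without replicate 3 (−3.29, adjusted p = 0.0434) and *C3AR1* without replicate 1 (−5.03, adjusted p = 0.0203). The human *CFB* and *C2* genes overlap on the same strand, so reads of their shared bases are uncertain. *C5AR1* had 94, 74 and 55 reads against 73, 59 and 78 (−0.009, SE 0.34, −0.68 to 0.67) and *C4B* 40, 19 and 56 against 28, 38 and 50 (0.078, SE 0.53, −0.96 to 1.11). *C4B* is nearly identical to *C4A*, which had 62, 79 and 25 against 11, 46 and 30 reads, so the split of reads between them is uncertain. *C1QA* had no read in any library, and *C1QB* and *C1QC* had 1 each, both in WT.

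**Figure D3:**
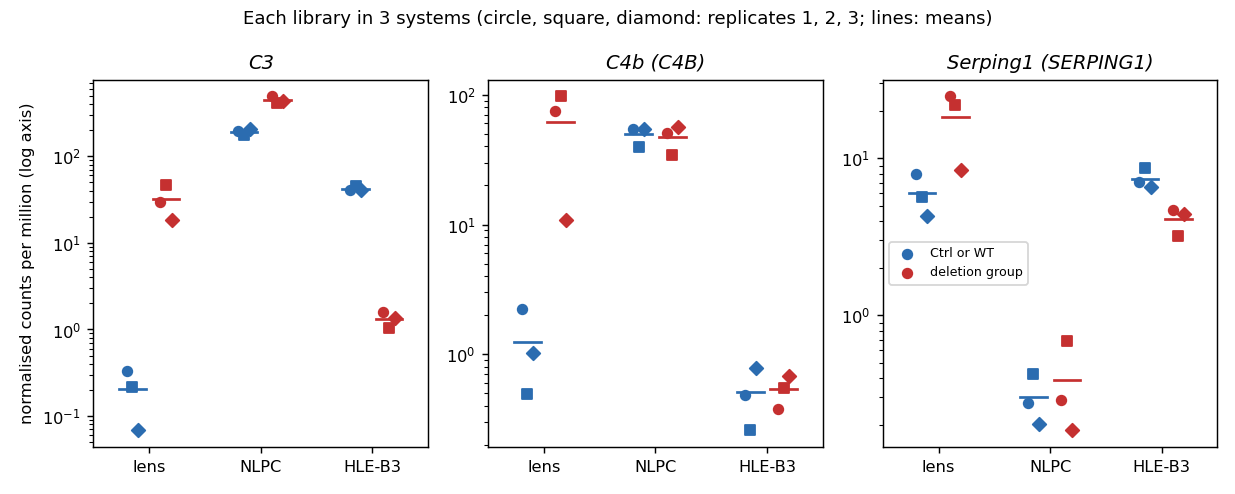
Normalised CPM (log axes) of C3, C4b and Serping1 or their human counterparts in each library of lens, NLPC and HLE-B3, controls in blue and deletion groups in red, with a line at each group mean. C3 is higher in the red libraries of lens and NLPC and lower in those of HLE-B3, from 42.3 to 1.33, and C4b and Serping1 are apart in lens.

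Of 41 other complement genes 19 were tested in HLE-B3 cells, 3 rose and 6 fell, with a median log2 fold change of 0.05 beside −0.02 over all genes. Of all 19049 genes tested there, 17% rose and 16.3% fell. The membrane regulators *CD55* (from 33.8 ± 4.45 to 62.1 ± 1.34 CPM, 0.88, SE 0.084, adjusted p = 5.54e-07) and *CD59* (134 ± 5.49 to 169 ± 3.69 CPM, 0.34, SE 0.056) rose. *SUSD4*, another complement inhibitor, fell from 4.02 ± 0.77 to 0.707 ± 0.156 CPM (−2.51, SE 0.26, adjusted p = 1.34e-06). Lower as well were *CFI* (−1.21, SE 0.32), the protease that inactivates C3b, *C5* (−0.97, SE 0.17), *C1RL* (−1.05, SE 0.20) and the C1 proteases *C1R* (−0.62, SE 0.18) and *C1S* (−0.53, SE 0.16). Regulators thus moved both ways. *C1S* did not pass without WT replicate 1 or *QKI* KO replicates 1 or 2 (adjusted p = 0.105, 0.0937 and 0.0561), nor *C1R* without WT replicate 2 or *QKI* KO replicate 2 (0.0753 and 0.0546). *CLU* (0.047, SE 0.073, −0.10 to 0.19) and *CD46* (0.066, SE 0.065, −0.06 to 0.19) did not pass.

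Among the signalling genes 15 were tested in HLE-B3 cells, 7 fell and 2 rose, where 16.3% of all genes tested fell and 17% rose. *SOCS3* fell most (from 139 ± 18.1 to 61.0 ± 3.99 CPM, −1.19, SE 0.084, adjusted p = 1.70e-08), then the cytokine gene *IL1B* (−1.07, SE 0.17), the interferon response factor *IRF1* (−1.03, SE 0.074) and *CEBPD* (−0.84, SE 0.098). The 2 that rose were *IL6ST* (0.51, SE 0.050) and *RELA* (0.20, SE 0.075). *IL6* was abundant and fell from 652 ± 80.8 to 372 ± 28.8 CPM (−0.81, SE 0.077, adjusted p = 5.65e-07). The macrophage markers were at or near 0 with the exception of *CSF1R* (2.80 ± 0.0878 to 1.18 ± 0.215 CPM, −1.25, SE 0.25), and their sum was 3.37 to 4.09 CPM in WT and 1.94 to 2.5 in *QKI* KO cells.

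**Figure D4:**
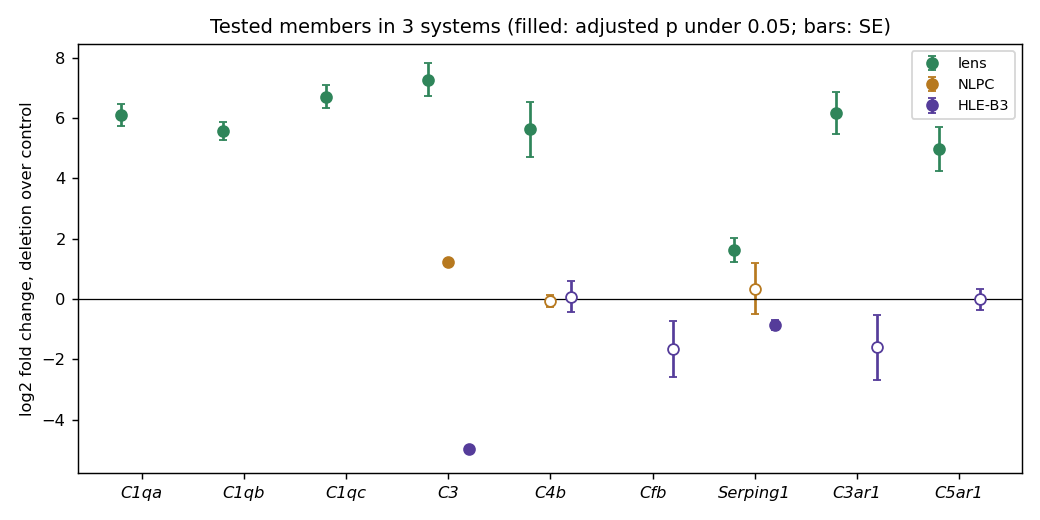
Log2 fold change of deletion over control (points) with its standard error (bars) for each member that could be tested in lens (green), NLPC (ochre) and HLE-B3 (purple), filled where the adjusted p was under 0.05. The 8 lens values lie between 1.63 and 7.26, and C3 is at 7.26, 1.22 and −4.99 in the 3 systems.

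**Figure D5:**
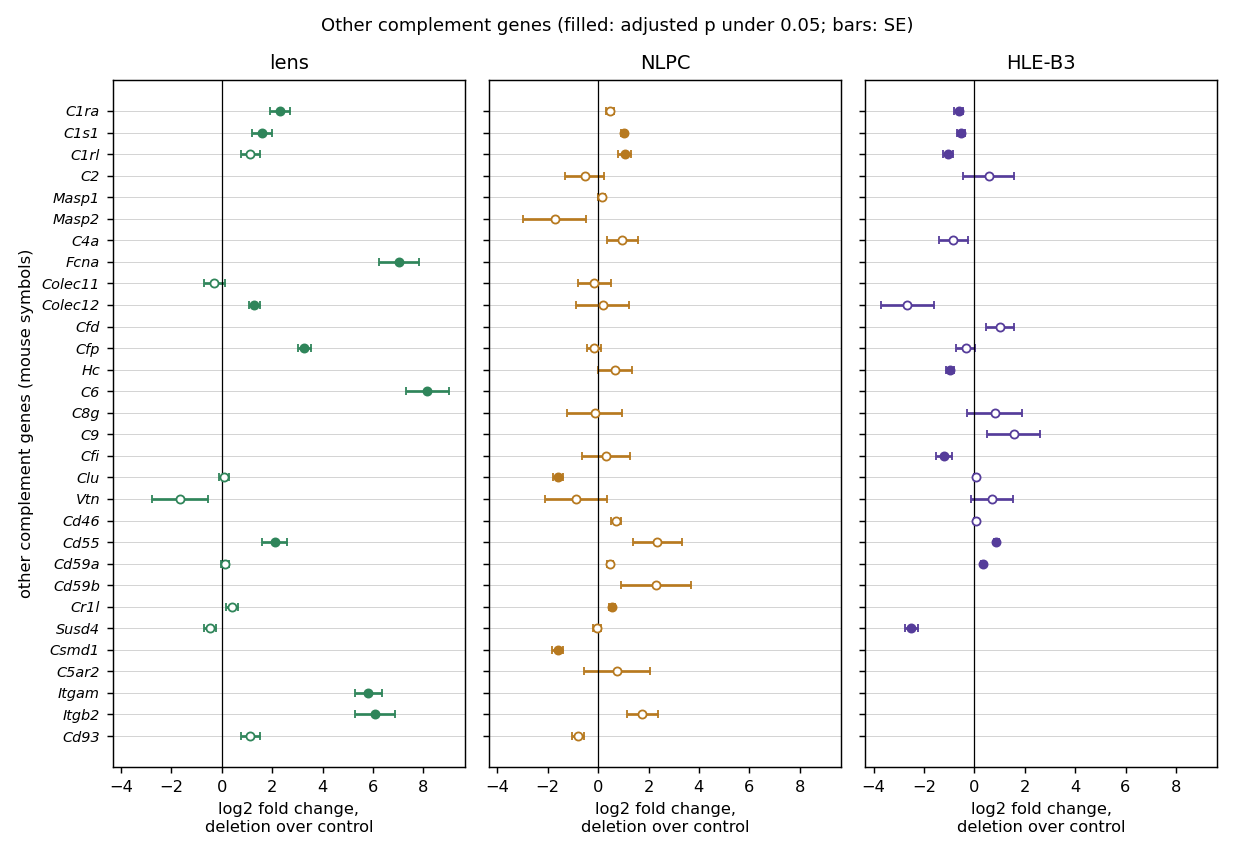
Log2 fold change with its standard error for other complement genes that could be tested in each system (1 listed gene is not drawn), on a shared axis, under their mouse symbols (Hc stands for human C5, Cd59a for CD59), filled where the adjusted p was under 0.05. The filled lens points are all above 0, while NLPC has 3 above and 2 below and HLE-B3 has 2 above and 6 below.

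Side by side, *C3* was the one member that passed in all 3 systems, higher in *Qk*-iCKO lenses and in NLPC libraries labelled *Qk-/-* and lower in *QKI* KO cells. The human and mouse tables were fitted separately and the difference in direction between HLE-B3 and either mouse system was not tested. *Serping1* passed in 2 systems, higher in *Qk*-iCKO lenses and lower in *QKI* KO cells.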

How the data were processed

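RNA-seq was analysed in 18 libraries, 3 in each of 6 groups named by the labels. The authors extracted total RNA, made stranded (TruSeq) libraries, aligned the reads with STAR 2.6.1b to mm10 or hg19 and counted them per gene with HTSeq 0.11.0. The submitters' processing notes also name HISAT2 2.0.4 and featureCounts without a role. The deposited values are raw counts, 1 table per system, not normalized.

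Each table was fitted alone with edgeR 4.0.16 in R 4.3.3: filterByExpr (minimum count 10, minimum total 15), TMM, the quasi-likelihood test without covariates, and Benjamini-Hochberg adjustment over all genes tested, called at 0.05. The SE is the log2 fold change divided by the square root of F, and intervals of log2 fold changes are 1.96 SE. With 3 libraries per group these intervals are narrower than the quasi-likelihood test allows. For *Qk* in lens the interval was −0.59 to −0.03, while the test gave an unadjusted p of 0.0628. Ratios of summed counts have exact 95% binomial intervals. An exact permutation test of 3 against 3 cannot go below p = 0.1. *PECAM1*, listed more than once in the human table, was left out. Lens and NLPC were joined for the interaction. Coordinates and exon lengths are GENCODE vM21 and v44 lifted to GRCh37.

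Named are the 9 members and up to 12 other complement genes per comparison past the threshold. Up to 4 signalling genes and markers per list with the largest change are named too, as is the targeted gene. The 3 genes nearest in pattern to *C1qb*, *C3* and *Serping1* were taken from outside these lists. The genes given with values that did not pass, and *IL6*, were chosen after their values were seen. Members and lists were chosen with earlier results of these data known. The labels do not say that each library is a separate animal or culture beyond its replicate number, so p-values measure the spread between these samples. Deviations of libraries of one number were positively correlated in lens (r = 0.133 to 0.523) and NLPC (0.123 to 0.32). The number did not always mark the closest library, which was *Qk*-iCKO lens 1 for Ctrl lens 2 and *Qk-/-* replicate 3 for NLPC WT 1. Alternatives were RLE or total-count scaling, TMM without crystallins, other filters, DESeq2 1.42.0, a replicate block and leaving out each library. The steps were tested on simulated data. Some genes of the lists are not reported here.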

Additional observations from a re-analysis of the deposited data

Results flagged for a closer look

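*C3* and *C4b* are listed here because the effect of the deletion differed between lens and NLPC in the test of the interaction. The difference, NLPC minus lens, was −6.00 on the log2 scale for *C3* (SE 0.54, adjusted p = 6.85e-05) and −5.61 for *C4b* (SE 0.91, adjusted p = 0.00277). The lens rise started from 8 reads of *C3* in 3 Ctrl libraries together, and the NLPC rise from at least 7372 in each WT library.

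*C3* moved in opposite directions in the mouse systems and the human line, with every library of each deletion group beyond every control library. Its log2 fold change was 7.26 in lens, 1.22 in NLPC and −4.99 in HLE-B3 cells. *Serping1* did so between lens (1.63) and HLE-B3 (−0.86). These differences across species were not tested. Groups of 3 are too small for the test for a single sample far from the others, so none was run.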

How the results depend on the processing

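Limits and alternatives are as follows. With 1 library left out, 7 to 8 lens members, 1 NLPC member and 2 to 3 HLE-B3 members passed. Calls that the named genes lost are given beside their results. A filter of 10 or more reads in all samples left 1 lens member (*Serping1*), since each other member has a Ctrl library under 10 reads, 4 other complement genes and 0 of the interaction calls; it gave 8 other complement genes in NLPC. Keeping every gene with at least 1 count gave 2521 lens genes, and in NLPC 2 members, *C3ar1* being added (log2 fold change 6.16, adjusted p = 0.0381, most reads in replicate 2), and 8 other complement genes. Total-count scaling gave 884 lens genes (768 higher and 116 lower, against 1023 and 473 with TMM) and moved the median of all lens genes from 0.006 to 0.292; for the interaction it gave 156 higher and 861 lower in NLPC, against 535 and 888. DESeq2 called 3841 NLPC genes and 10 other complement genes there; the cause was not tested. With 1 library left out, 581 to 1709 lens genes, 681 to 3797 NLPC genes (3797 without the library labelled *Qk-/-* replicate 2) and 4959 to 6036 HLE-B3 genes passed, with 5 to 11 lens and 3 to 8 NLPC complement genes outside the members. With the replicate block 1982, 2018 and 5901 genes passed in lens, NLPC and HLE-B3; the block changed no call of a member or of another complement gene in lens or NLPC. In HLE-B3 numbers are shared without a correlation (−0.0495 to 0.0613); there the block added *COLEC12* and put *C5AR1* at 0, from −0.009. Sign changes under a left-out library were limited to values near 0 that had not passed: *C4b* (−0.23 to 0.12) and *Serping1* (−0.34 to 0.65) in NLPC, *C4B* (−0.22 to 0.52) and *C5AR1* (−0.15 to 0.14) in HLE-B3. With RLE and crystallin-free factors no call of the members changed. Depth limits *Cfb* in lens and the C1q chains and receptor genes in NLPC, which were under the count minimum; with every gene kept, *Cfb* (0.032) and *C3ar1* passed.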

Other observations

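Markers of further cell types, outside the comparisons above, were as follows. In lenses, pigment cell genes (*Tyr*, *Tyrp1* and *Pmel*) summed to 2.27 to 4.85 CPM in Ctrl and to 67.7, 14.9 and 4.34 in *Qk*-iCKO lenses. Endothelial genes summed to 1.16 to 3.09 against 4.94 to 7.55 CPM, and *Pecam1* rose (log2 fold change 2.21, SE 0.49, adjusted p = 0.028). The neural stem cell gene *Nes*, whose promoter drives the Cre, rose from 6.03 ± 1.14 to 27.4 ± 11.5 CPM (2.19, SE 0.35, adjusted p = 0.00871). The membrane channel gene *Mip* fell from 10900 ± 1045 to 3370 ± 1536 CPM (−1.69, SE 0.37, adjusted p = 0.0259), and the 7 lens markers summed to 179000 to 190000 CPM in Ctrl and to 97000 to 164000 in *Qk*-iCKO lenses.

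In NLPCs *Pdgfra* fell (−1.26, SE 0.13, adjusted p = 0.0011), while the lens markers, chiefly *Pax6*, summed to 81.5 to 87.9 CPM in WT and to 83.8 to 88.7 in the libraries labelled *Qk-/-*. Endothelial and pigment cell genes summed to at most 7.14 and 1.52 CPM in any NLPC library. Fibroblast or mesenchyme markers summed to 68.7 to 79 CPM in WT and to 33.3 to 35.1 in the libraries labelled *Qk-/-*. Astrocyte or neural stem cell markers summed to 3190 to 3520 against 2690 to 3070 CPM there, and in lenses to 45.9 to 55.4 against 59.7 to 89.3 CPM. In HLE-B3 cells the collagen gene *COL1A1* fell from 3444 ± 47.8 to 1798 ± 164 CPM (−0.94, SE 0.056, adjusted p = 2.03e-09) and *NES* from 101 ± 7.58 to 42.3 ± 1.26 CPM (−1.25, SE 0.068, adjusted p = 6.51e-10), and *LUM* rose (0.53, SE 0.12, adjusted p = 0.00176). Their lists summed to 3560 to 3660 against 1800 to 2110 CPM (fibroblast or mesenchyme) and to 96.1 to 110 against 42.6 to 45.4 CPM (astrocyte or neural stem cell), and the lens markers to 138 to 157 against 128 to 138 CPM. Neutrophil, endothelial and pigment cell genes summed to at most 0.348, 0.603 and 0.82 CPM there.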
